A study of Homo sapiens with 15 samples.

Results

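The aryl hydrocarbon receptor (AHR) and the genes around it were followed through all groups of KPL4, an established line of human breast adenocarcinoma cells that carries HER2 amplification. The set was chosen by name and held 7 of the 60664 genes of the count table: the receptor AHR, its partner ARNT, the repressors AHRR and TIPARP, and the cytochrome P450 genes CYP1A1, CYP1A2 and CYP1B1. Each was found by its Ensembl identifier. Ribosome-depleted total RNA had been sequenced from 15 libraries in 5 groups of 3. Control cells kept endogenous ERβ, the estrogen receptor made from ESR2. Knockout cells lacked it. Add-back cells were made from the knockout line by transfecting ERβ. These 3 groups grew in Ham's F12 with 7% fetal bovine serum, insulin and hydrocortisone. The remaining groups were add-back cells moved for 72 h to medium without phenol red and with 1% serum stripped by charcoal, and then given DMSO (vehicle) or 200 nM of the ERβ agonist LY500307 for 24 h. Add-back, vehicle and LY500307 cells thus share the knockout background. The labels do not say whether a line was 1 clone or a pool, nor whether the 3 libraries of a group came from separate cultures, so p-values measure only the spread between these libraries.

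AHR is a ligand-activated transcription factor of the bHLH-PAS family. It waits in the cytoplasm with HSP90 and PTGES3 (p23), binds planar aromatic compounds and tryptophan metabolites, enters the nucleus, pairs with ARNT and binds DNA at xenobiotic response elements with the core GCGTG. CYP1A1, CYP1A2 and CYP1B1 are its classical targets and oxidise polycyclic aromatic compounds and estradiol, which CYP1A1 and CYP1B1 hydroxylate at different positions. AHRR and TIPARP are induced by AHR and in turn repress it, AHRR by competing for ARNT and TIPARP by ADP-ribosylation. In breast epithelium CYP1B1 is expressed without added ligand and CYP1A1 is inducible, while CYP1A2 is mainly a liver gene.

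The start regions of the CYP1A pair and of both repressors are shown because their start windows differ in matches to the core element. RefSeq windows (GRCh38.p14) of the 250 bases before a gene start were given for 6 of the 7 members, not for CYP1B1. Printed are the bases of a window that precede any GENCODE 29 exon overlapping it, and 29 bases around a match that lies within an exon. The AHRR window overlaps no exon but lies inside the gene, downstream of its GENCODE 29 start. They run 5′ to 3′ on the strand of the gene, and capitals mark GCGTG or its reverse complement CACGC.
CYP1A1 upstream (chr15:74725611-74725778, minus strand): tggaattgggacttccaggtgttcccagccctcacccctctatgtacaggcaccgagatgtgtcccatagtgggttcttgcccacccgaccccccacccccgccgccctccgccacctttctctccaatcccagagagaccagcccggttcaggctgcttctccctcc
CYP1A1 match (chr15:74725569-74725597, minus strand): ccagggaaggagGCGTGgccacacgtaca
CYP1A2 upstream (chr15:74748595-74748843, plus strand): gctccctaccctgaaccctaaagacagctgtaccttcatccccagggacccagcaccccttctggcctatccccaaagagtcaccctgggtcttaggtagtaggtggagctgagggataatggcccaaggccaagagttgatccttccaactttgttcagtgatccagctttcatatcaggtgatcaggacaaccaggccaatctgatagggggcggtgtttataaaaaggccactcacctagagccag
TIPARP match (chr3:156674370-156674398, plus strand): cgcgagaaaggaCACGCcccctcgcggga
TIPARP match (chr3:156674436-156674464, plus strand): cgaacgaacgcgCACGCgcgcgcaggggg
AHRR, first window (chr5:321464-321713, plus strand): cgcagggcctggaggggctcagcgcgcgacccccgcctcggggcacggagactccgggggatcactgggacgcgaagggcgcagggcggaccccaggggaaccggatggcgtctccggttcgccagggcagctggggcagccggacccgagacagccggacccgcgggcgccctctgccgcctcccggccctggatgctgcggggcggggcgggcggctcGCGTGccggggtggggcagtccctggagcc

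CYP1A1 had 1 match, which began 57 bases before the RefSeq gene start, inside the first exon of a longer GENCODE 29 transcript, and CYP1A2 had none. The first TIPARP window had 2 matches and its other 2 windows none. AHRR had 1 match in the window shown and 2 in a second window (chr5:322360-322609). The AHR and ARNT windows had none. GCGTG on either strand was found in 32.2% of all 35116 windows of this length, so a match is common, and 10.2% held 2 or more. Sequence outside the windows was not searched, so the counts do not show which members have the element. The consensus palindrome of the estrogen response element was in no member's window and in 0.0399% of all windows.

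CYP1A1 lies on GRCh38 chromosome 15 (74719542 to 74725610, minus strand) head to head with CYP1A2 (74748844 to 74756202, plus strand), and 23233 bases separate them. CYP1B1 is on chromosome 2 (38066973 to 38109902), AHR on chromosome 7 (16916359 to 17346152), ARNT on chromosome 1 (150809705 to 150876768), AHRR on chromosome 5 (304176 to 438291) and TIPARP on chromosome 3 (156673235 to 156706770), all in GENCODE 29. Antisense genes overlap CYP1B1 (CYP1B1-AS1) and TIPARP (TIPARP-AS1, over 1144 bases), and whether strand was used in counting is not given in the sources used here.

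Total expected counts ran from 12614050 to 19390386 per library. Squared differences between replicates were 2.15 to 5.43 times counting error. Of the 7 members, 6 passed the filter on low counts and were tested, and CYP1A2 did not pass. The 6 breast epithelial markers EPCAM, CDH1, KRT8, KRT18, KRT19 and GATA3 were detected in every group, at 2470 to 3723 CPM in sum. The 3 leukocyte markers summed to at most 0.919 CPM, and the 2 hepatocyte markers to at most 1.11 CPM, nearly all of it ALB. The labels do not give the edit, which need not lower the mRNA: ESR2 averaged 5.76 ± 0.867 CPM over control libraries, 4.41 ± 1.36 over knockout libraries (SD, n = 3; adjusted p = 0.0796, edgeR) and 32.8 ± 1.94 over add-back libraries. The log2 fold change of ESR2 in knockout against control was -0.38, and it passed without knockout replicate 1 (-0.60, adjusted p = 0.00992), without control replicate 2 (-0.49, adjusted p = 0.0344), without a filter (adjusted p = 0.0291) and with DESeq2 (adjusted p = 0.043), while it was at -0.19 without knockout replicate 2 (adjusted p = 0.37). In bulk RNA, fewer cells with a transcript and less of it per cell cannot be told apart.

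CYP1A1 was the member that moved most, and it moved with the depleted medium. Levels are CPM, counts scaled to library size with TMM factors. Control libraries had 1.06, 0.786 and 0.948 CPM, knockout libraries 1.28, 0.913 and 1.35 CPM, and untreated add-back libraries 1.10, 1.10 and 0.575 CPM. Vehicle libraries had 37.2, 40.2 and 32.8 CPM, and LY500307 libraries 36.7, 25.9 and 28.9 CPM. All 6 libraries from depleted medium lay far above all 9 from regular medium, with no overlap. In counts this was 40, 52 and 46 in the sums of the regular-medium groups against 1804 with vehicle and 1571 with LY500307.

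Its neighbour CYP1A2 stayed at the limit of detection. It had 0 counts in the 9 libraries in regular medium, which allows up to 0.0221 CPM over these libraries (3 counts, counting error only). The vehicle group had 1 count and the LY500307 group 2.02 expected counts in all. No fold is given for it.

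CYP1B1 was high in every group, lowest in control and highest in vehicle cells. Control libraries had 128, 107 and 116 CPM, knockout libraries 207, 216 and 207, add-back libraries 239, 247 and 265, vehicle libraries 589, 602 and 579, and LY500307 libraries 515, 520 and 536. Neighbouring groups in the order control, knockout, add-back, LY500307 and vehicle did not overlap at any step. Transcript CYP1B1-205 held 98.3% to 99.5% of its reads on average in each group.

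AHR itself had 220.3, 186 and 194 CPM in control libraries (mean 199.8 ± 18.2), 206, 208 and 207 in knockout (207 ± 1.17), 213, 221 and 232 in add-back (222 ± 9.51), 349, 346 and 311 in vehicle (335 ± 21.3) and 303, 296 and 293 in LY500307 libraries (298 ± 5.00). Control and knockout libraries overlapped, while the depleted-medium libraries all lay above the rest. Its main transcript AHR-201 held 78.7% to 84.3% of the reads on average in each group.

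ARNT, the obligate partner, ranged little, from 45.2 ± 0.919 CPM in knockout to 50.8 ± 1.76 CPM in vehicle cells, and every pair of neighbouring groups overlapped. The ratio of AHR to ARNT reads was 4.37 ± 0.353 in control cells and 6.60 ± 0.357 in vehicle cells, on the CPM scale without correction for length.

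TIPARP was highest in control cells. Control libraries had 63.9, 56.1 and 60.5 CPM, knockout libraries 40.3, 40.9 and 41.2 CPM, add-back libraries 43.5, 46.4 and 45.0 CPM, vehicle libraries 46.8, 48.1 and 38.4 CPM and LY500307 libraries 47.4, 47.6 and 51.8 CPM. No other group reached the lowest control library. Knockout and vehicle libraries overlapped, as did vehicle and add-back.

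**Figure D1:**
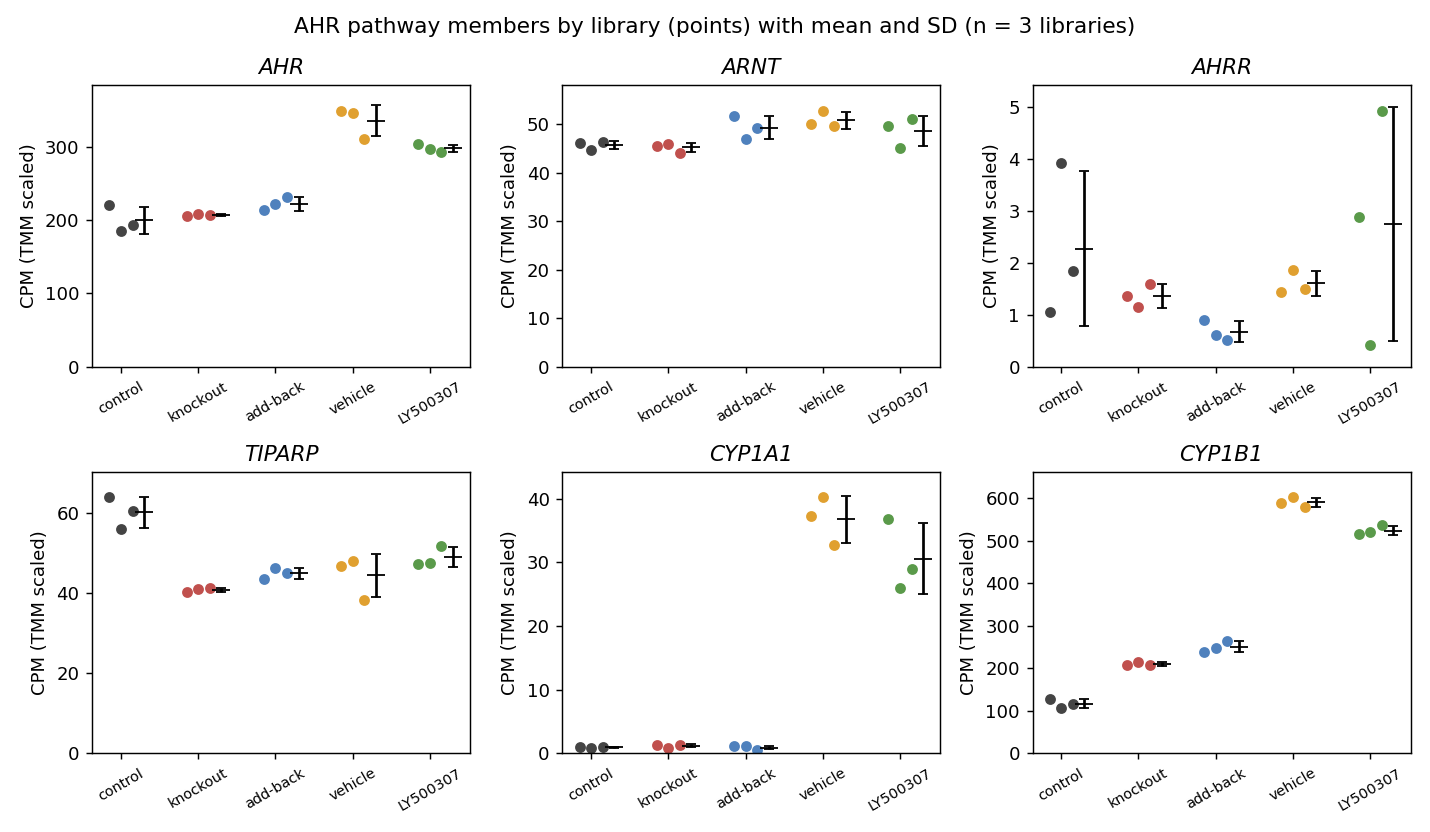
TMM-scaled CPM (vertical axis, from 0) of the 6 members that were tested, by group (horizontal axis). Points are libraries, and the bar beside them is the mean with its SD (n = 3). CYP1A1 lies at 0.575 to 1.35 CPM in regular medium and at 25.9 to 40.2 CPM in depleted medium, CYP1B1 climbs from control to vehicle cells, and TIPARP is highest in control cells.

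Levels of different genes were compared per kb of transcript (CPM per kb, a level). In control cells AHR led with 33.8 ± 3.08 CPM per kb, ahead of CYP1B1 at 22.4 ± 1.97. In the other 4 groups CYP1B1 led, with 40.3 ± 0.972 in knockout and 113 ± 2.16 in vehicle cells, where AHR was at 56.7 ± 3.60. CYP1A1 was at 0.365 ± 0.0542 CPM per kb in control cells. In vehicle cells it reached 14.4 ± 1.47, close to TIPARP at 12.7 ± 1.51 and ARNT at 11.7 ± 0.407. CYP1A1 reads were 0.374% ± 0.137 of CYP1B1 reads in add-back cells and 6.22% ± 0.520 in vehicle cells (CPM, without correction for length).

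AHRR was low, and its value depends on how reads were divided. Counts given to AHRR were 14.2, 55.0 and 28.7 in control, 18.5, 15.04 and 25.7 in knockout, 14.0, 11 and 7.86 in add-back, 21.9, 35.0 and 21.5 in vehicle and 50.8, 7.04 and 84.0 in LY500307 libraries. The readthrough gene PDCD6-AHRR shares exons with it. The transcript AHRR-203, which GENCODE 29 places in AHRR, had the counts of PDCD6-AHRR in 15 of 15 libraries (within 0.011 counts), so the authors' annotation counts it there. The coding transcript AHRR-201 was given 59.5 expected counts in control, 0 in knockout, 0 in add-back, 49.3 in vehicle and 101 in LY500307 cells. GENCODE 29 transcripts other than AHRR-203 held 49.1% of the AHRR count in knockout and 34.9% in add-back cells. In the other groups they held 79.6% to 87.6%. PDCD6-AHRR was at 0 in control replicate 2 and LY500307 replicate 3, the libraries in which AHRR was highest in their groups. Summed over both genes the spread relative to the mean was smaller in each group, with 3.90 ± 0.239 CPM in control, 6.75 ± 0.812 in knockout, 5.54 ± 1.00 in add-back, 3.86 ± 0.211 in vehicle and 4.64 ± 0.709 in LY500307 cells.

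**Figure D2:**
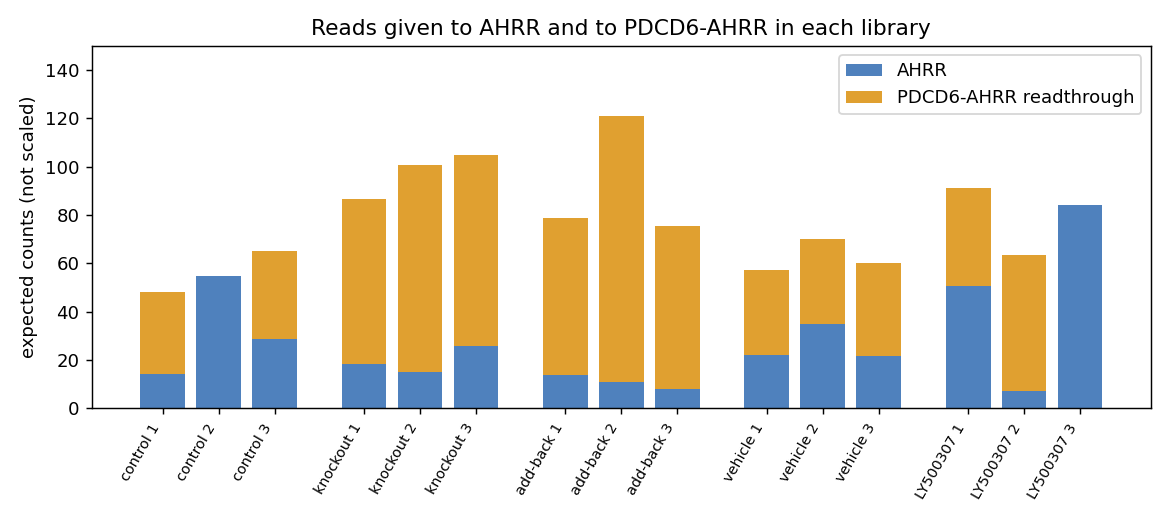
Expected counts (vertical axis, not scaled for depth) given to AHRR (blue) and to the readthrough gene PDCD6-AHRR (orange) in each of the 15 libraries. The share given to AHRR runs from 9.09% in add-back replicate 2 to 100% in control replicate 2 and LY500307 replicate 3, while the total varies less.

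Knockout against control asked what changed with the loss of ERβ. CYP1B1 rose 1.80-fold (log2 fold change 0.85 ± 0.05, SE; adjusted p = 6.74e-11, edgeR quasi-likelihood test over all genes). TIPARP fell by 0.56 ± 0.07 on the log2 scale (adjusted p = 1.99e-06). The remaining members did not pass: AHR was at 0.05 ± 0.05 (adjusted p = 0.458), ARNT at -0.02 ± 0.05 (adjusted p = 0.814), CYP1A1 at 0.36 ± 0.38 (adjusted p = 0.476) and AHRR at -0.73 ± 0.56 (adjusted p = 0.311). The 95% interval of the CYP1A1 difference, 0.734-fold to 2.24-fold, holds the fold of CYP1B1, so at these counts a change of that size and no change cannot be told apart. Thus 2 of 6 members were called, while 46.0% of all 19516 genes were, so the share of members is no larger than the background. The libraries of the groups did not overlap for these 2 members, as for 52.6% of all genes. With offsets for GC content and transcript length AHR was higher in knockout cells (0.18, adjusted p = 0.00109), and it was called again without control replicate 1 (0.13, adjusted p = 0.0365). AHRR and PDCD6-AHRR summed were higher in knockout cells (0.79, adjusted p = 0.000254), the opposite of AHRR counted alone, which was called lower without a filter (-0.73, adjusted p = 0.0359) and was at -0.10 without control replicate 2 (adjusted p = 0.918). For AHRR the fit without a filter thus gave a smaller adjusted p at the same fold change. Calls made only by that fit are weak evidence, here and below.

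Add-back against knockout asked what changed with the return of ERβ, at 5.69-fold the ESR2 mRNA level of control cells. CYP1B1 rose a further 1.19-fold (log2 fold change 0.25 ± 0.05, adjusted p = 0.000744), away from the control level. TIPARP was at 0.14 ± 0.07 (adjusted p = 0.185), AHR at 0.10 ± 0.05 (adjusted p = 0.212), ARNT at 0.12 ± 0.05 (adjusted p = 0.105), CYP1A1 at -0.35 ± 0.37 (adjusted p = 0.568) and AHRR at -1.02 ± 0.69 (adjusted p = 0.325). CYP1B1 was thus the only member of 6 called, against 19.6% of all genes. The groups did not overlap for 5 members, all but CYP1A1, as for 35.3% of all genes. The 4 fibroblast markers summed to 2.49 to 3.18 CPM in knockout and 3.90 to 4.59 CPM in add-back libraries, with COL1A1 called higher (0.57, adjusted p = 0.0405) and COL1A2 at 0 in both groups. ALB was also called higher, from 0.259 ± 0.106 to 0.644 ± 0.226 CPM (adjusted p = 0.0306). The part of these markers in the result was not tested. ARNT was called without add-back replicate 2 (0.17, adjusted p = 0.0466), AHR, AHRR and TIPARP were called without a filter on low counts (adjusted p from 0.0166 to 0.0371), and AHRR (0.0337) and TIPARP (0.045) in a fit of the 6 libraries alone. The calls without a filter carry the limit given above.

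Add-back against control showed what was left. It shares its libraries with both comparisons above and is no independent evidence. CYP1B1 was 2.14-fold higher (log2 fold change 1.10 ± 0.05, adjusted p = 2.99e-12) and TIPARP lower (-0.42 ± 0.07, adjusted p = 4.92e-05) in add-back cells. AHR was higher by 0.15 ± 0.05 (adjusted p = 0.0246) although its libraries overlapped, and this call was lost without control replicate 2 (adjusted p = 0.0881), control replicate 3 (0.0605) or add-back replicate 3 (0.0646). CYP1A1 did not pass (0.01 ± 0.39, adjusted p = 0.991), and neither did ARNT (0.11 ± 0.05, adjusted p = 0.104), which passed with the GC and length offsets (0.17, adjusted p = 0.00631) and without add-back replicate 2 (0.16, adjusted p = 0.0329). AHRR was lower (-1.75 ± 0.65, adjusted p = 0.0259), but not without control replicate 2 (-1.11, adjusted p = 0.205), add-back replicate 2 (adjusted p = 0.0807) or add-back replicate 3 (adjusted p = 0.0823), nor with limma-voom (adjusted p = 0.108). Summed with PDCD6-AHRR it was higher (0.52, adjusted p = 0.00946). In all 4 of 6 members were called, against 45.8% of all genes. The groups did not overlap for ARNT, AHRR, TIPARP and CYP1B1, as for 53.3% of all genes. COL1A1 (0.78, adjusted p = 0.00254) and ALB (1.59, adjusted p = 0.00538) were called higher here too.

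**Figure D3:**
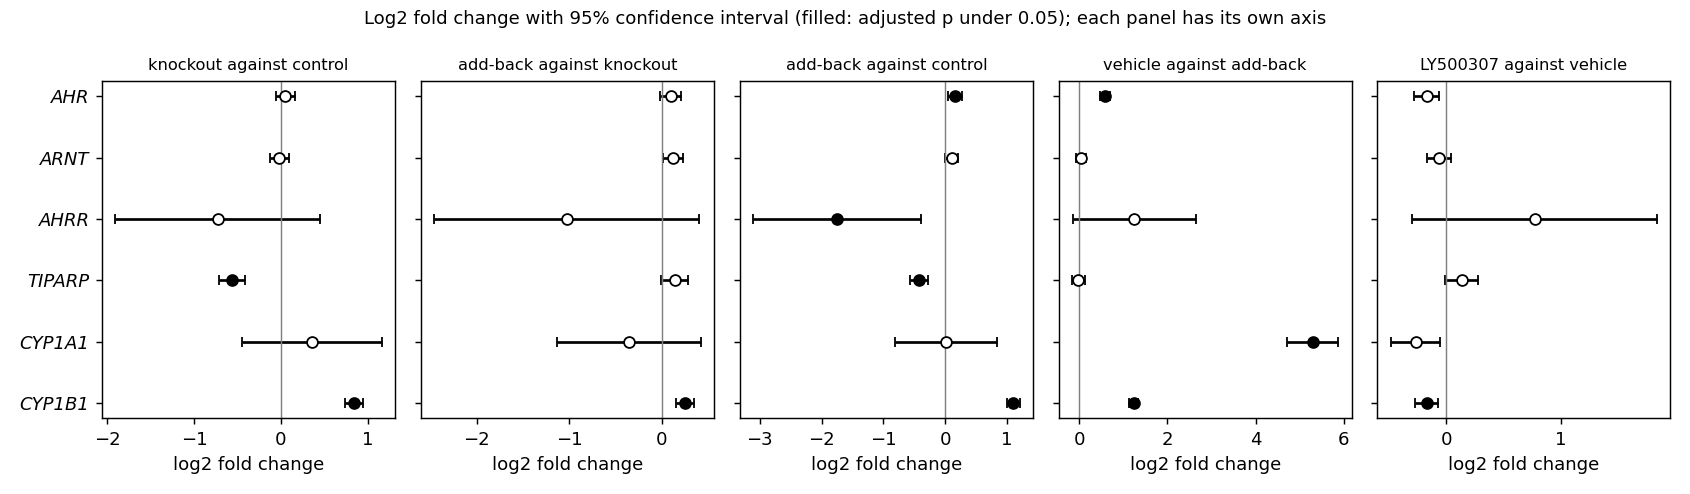
Log2 fold changes (horizontal axis, with its own range in each panel) of the 6 tested members with 95% confidence intervals, for the 5 comparisons. Filled points had an adjusted p under 0.05. CYP1B1 is to the right of 0 in the first 4 panels, at 0.85, 0.25, 1.10 and 1.24, and CYP1A1 in the fourth at 5.29.

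Vehicle against add-back set add-back cells in depleted medium with DMSO beside add-back cells in regular medium. ESR2 was higher with vehicle, at 45.2 ± 3.24 CPM against 32.8 ± 1.94 in add-back libraries (SD, n = 3). Under all 15 alternative settings it was called higher (log2 fold change 0.38 to 0.49), and its part in the result was not tested. Serum content, charcoal treatment, phenol red and DMSO differ. Base medium, insulin, hydrocortisone and time in culture may differ too, and the parts of all these cannot be told apart. CYP1A1 rose 39.1-fold (95% interval 26.1 to 58.6; log2 fold change 5.29 ± 0.28, adjusted p = 2.68e-14), the rise ranked 4 among 19516 genes. CYP1B1 rose 2.35-fold (1.24 ± 0.05, adjusted p = 1.15e-13) and AHR rose 1.51-fold (0.59 ± 0.05, adjusted p = 2.33e-08). ARNT (0.05 ± 0.05, adjusted p = 0.484) and TIPARP (-0.01 ± 0.07, adjusted p = 0.885) did not pass. The interval of TIPARP, 0.895-fold to 1.10-fold, leaves out a change of the size seen in CYP1B1. With the GC and length offsets TIPARP was lower in vehicle cells (-0.18, adjusted p = 0.0153). AHRR was at 1.26 ± 0.66 (adjusted p = 0.115), passed without a filter (1.23, adjusted p = 0.000737) and in the 6 libraries alone (1.22, adjusted p = 0.00312), and was lower when summed with PDCD6-AHRR (-0.54, adjusted p = 0.00601). Of 6 members 3 were called, all higher, where 48.1% of all genes were called and 26.4% were called higher. The groups did not overlap for AHR, AHRR, CYP1A1 and CYP1B1, as for 55.8% of all genes. At least 2-fold higher were CYP1A1 and CYP1B1, as were 3.64% of all genes.

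Over 15 alternative settings the log2 fold change of CYP1A1 ran from 5.03 to 5.42, that of CYP1B1 from 1.09 to 1.25 and that of AHR from 0.40 to 0.61, all called. The summed level of 3 endothelial markers moved in the same comparison, from 3.31 to 3.43 CPM in add-back to 10.3 to 10.6 CPM in vehicle libraries. Most of this was VWF (2.81 and 8.74 CPM on average), while PECAM1 was at 0.128 and 0.246 CPM and CDH5 at 0.414 and 1.46 CPM. None of the 3 was at 0 in a whole group, and their part in the result was not tested.

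**Figure D4:**
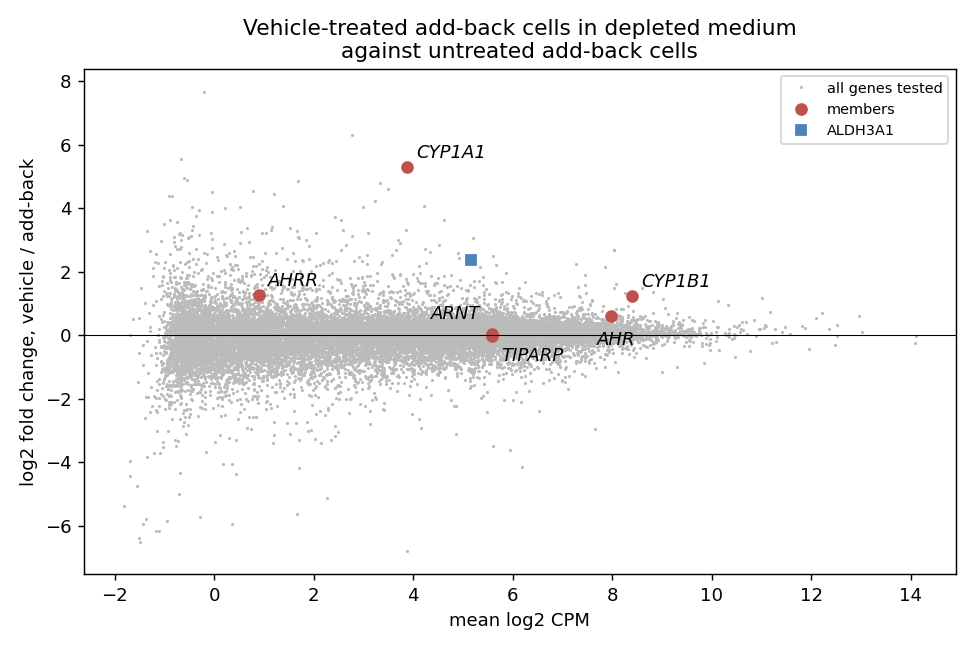
Log2 fold change of vehicle over add-back cells (vertical axis) against mean log2 CPM (horizontal axis) for all 19516 genes tested (grey), with the members in red and ALDH3A1 as a blue square. CYP1A1 stands at 5.29, rank 4 of all genes, and ARNT and TIPARP lie at 0.05 and -0.01. ALDH3A1 was marked after its values were seen, and of the 11 tested genes of its list 4 rose and 5 fell, where 48.1% of all genes were called.

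LY500307 against vehicle asked what the agonist changed in the same medium. CYP1B1 was 11.3% lower with LY500307 (log2 fold change -0.17 ± 0.05, adjusted p = 0.0286), with no overlap between the groups, as for 26.1% of all genes. This call was lost when any 1 of the 6 libraries was left out (adjusted p from 0.0523 to 0.164) and with the GC and length offsets (-0.12, adjusted p = 0.124). AHR did not pass (-0.17 ± 0.05, adjusted p = 0.0526), also with no overlap, and passed with DESeq2 (adjusted p = 0.0117), limma-voom (0.0313), upper-quartile factors (0.0321), the 6 libraries alone (0.0371), no filter (0.0102) and without vehicle replicate 3 (0.0178). CYP1A1 did not pass (-0.27 ± 0.10, adjusted p = 0.127), and its interval of 0.714-fold to 0.964-fold lies below 1, before correction over all genes. It passed without LY500307 replicate 1 (-0.41, adjusted p = 0.0262) and without a filter (-0.24, adjusted p = 0.0304). TIPARP (0.13 ± 0.07, adjusted p = 0.27), ARNT (-0.06 ± 0.05, adjusted p = 0.512) and AHRR (0.77 ± 0.51, adjusted p = 0.411) did not pass. AHRR passed without a filter (0.80, adjusted p = 0.0291), and was at 0.0716 without LY500307 replicate 3 and at 1.28 without LY500307 replicate 2. The single call among 6 members compares with 7.12% of all genes, a share that rests on single libraries: 1389 genes were called, and 299 to 1844 with 1 library left out, fewest without vehicle replicate 2 and most without vehicle replicate 3.

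The other AHR-responsive genes were described by a list of 13, of which 11 were tested. In knockout against control 3 rose and 6 fell, where 46.0% of all genes were called in either direction. The median log2 fold change was -0.51 against 0.00 over all genes. Among the falls with the smallest p were NFE2L2 (-0.70, adjusted p = 3.47e-12), the master regulator of antioxidant genes, UGT1A6 (-0.71, adjusted p = 1.17e-11), a glucuronosyltransferase that shares exons with other UGT1A genes, and the efflux transporter ABCG2 (-1.03, adjusted p = 1.85e-11). Another UGT1A gene was also among the 6 falls, so the count and median do not rest on independent genes only. In add-back against knockout 5 rose and 1 fell (median 0.14 against -0.01 over all genes), where 19.6% of all genes were called. In add-back against control 3 rose and 5 fell (median -0.20 against -0.02), where 45.8% of all genes were called.

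In vehicle against add-back 4 of the 11 rose and 5 fell, with a median of -0.07, where 48.1% of all genes were called. ALDH3A1, an aldehyde dehydrogenase and classical AHR target, named here after its values were seen, had 12.7, 13.3 and 12.3 CPM in the add-back libraries, and the vehicle libraries had 64.9, 62.5 and 70.2. It rose by 2.36 on the log2 scale (adjusted p = 2.94e-16) and was at 64.5 ± 2.13 CPM with LY500307. In knockout against control it fell by 0.51 (adjusted p = 6.62e-06), where CYP1B1 rose. NQO1, a quinone reductase under both AHR and NFE2L2 and also named after its values were seen, was abundant and did not pass here, with 1369 ± 37.8 CPM before and 1317 ± 36.0 after the change of medium (log2 fold change -0.06, adjusted p = 0.121). In LY500307 against vehicle 2 rose and 2 fell, where 7.12% of all genes were called. The amino acid transporter gene SLC7A5 rose by 0.59 there (adjusted p = 1.55e-06, and 0.39 with the GC and length offsets).

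**Figure D5:**
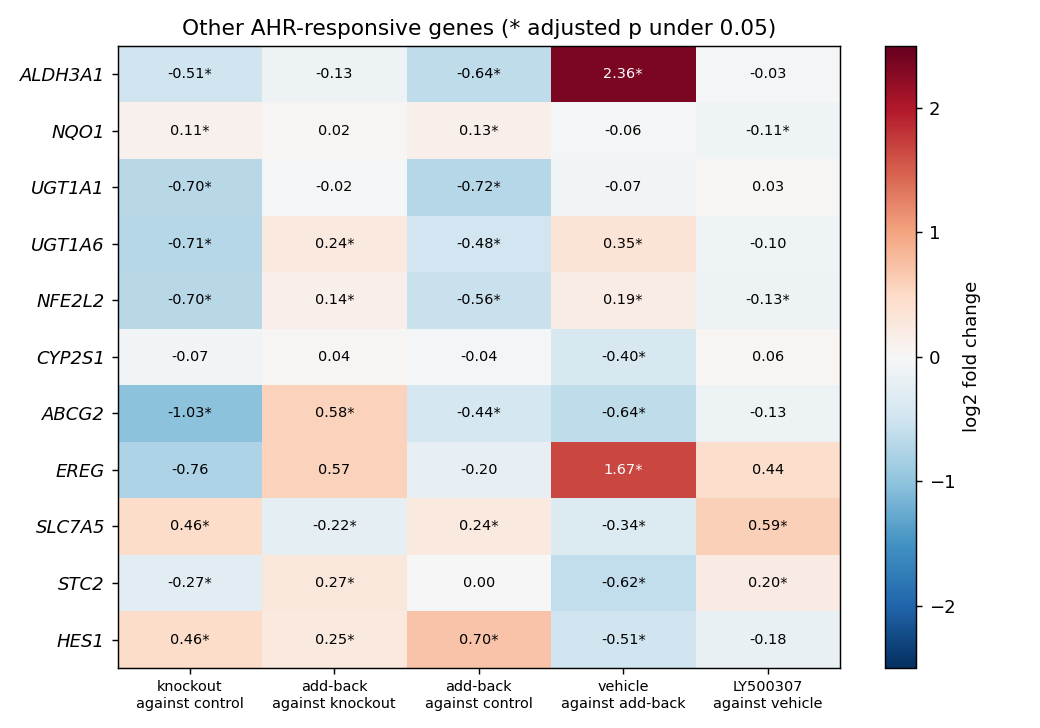
Log2 fold changes (colour and printed value) of the 11 tested genes of the list of other AHR-responsive genes (rows) in the 5 comparisons (columns), with a star for an adjusted p under 0.05. ALDH3A1 is at 2.36 in vehicle against add-back, while NQO1 stays between -0.11 and 0.13.

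For the lists below, the median log2 fold change reads against that of all genes, 0.00 in knockout against control and 0.01 in vehicle against add-back. Counts called read against the share of all genes called. This share was 46.0% in knockout against control, 19.6% in add-back against knockout and 45.8% in add-back against control. It was 48.1% in vehicle against add-back and 7.12% in LY500307 against vehicle. Of the chaperones that hold AHR, in knockout against control HSP90AA1, the inducible HSP90, rose by 0.30 (adjusted p = 5.38e-09), and HSP90AB1 (-0.24, adjusted p = 3.79e-06) and PTGES3 (-0.32, adjusted p = 4.68e-06) fell. In vehicle against add-back HSP90AA1 rose by 0.25 (adjusted p = 6.24e-08), HSP90AB1 by 0.11 (adjusted p = 0.00621) and PTGES3 by 0.15 (adjusted p = 0.00798).

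Of 13 other bHLH-PAS genes 9 were tested. ARNT2, the paralogue of ARNT, had 2 counts in control, 31 in knockout, 1 in add-back, 42 in vehicle and 48 in LY500307 cells, so it was detected in knockout cells and in depleted medium and hardly elsewhere, at under 1 CPM throughout. NPAS2, a partner of BMAL1 in the circadian clock, rose by 0.92 in knockout against control (adjusted p = 1.52e-06), and BMAL2, a paralogue of BMAL1, fell by 0.67 (adjusted p = 4.02e-08). Counts for the list were 4 higher and 2 lower in knockout against control (median 0.10), 3 and 2 in add-back against knockout, 2 and 2 in add-back against control, and 3 and 3 in vehicle against add-back (median 0.04). In LY500307 against vehicle 0 of 9 were called by edgeR, limma-voom or DESeq2, and 1 had an unadjusted edgeR p under 0.05.

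Among 7 coactivators and chromatin partners 1 rose and 2 fell in knockout against control (median -0.02): NCOA1 at 0.26 (adjusted p = 0.000552), NCOA3 at -0.44 (adjusted p = 2.15e-09) and the Mediator subunit MED1 at -0.15 (adjusted p = 0.00152; -0.0793 with the GC and length offsets, adjusted p = 0.0353). In vehicle against add-back 3 rose and 2 fell (median 0.11).

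Enzymes of tryptophan breakdown, a route with some products that are AHR ligands, had 4 of 7 genes tested. These are mRNA levels, and no ligand was measured. In knockout against control KMO (0.79, adjusted p = 1.39e-05), the kynurenine monooxygenase, and TDO2 (0.63, adjusted p = 0.000533), the first enzyme of the route, rose, and KYNU (-0.37, adjusted p = 1.62e-06), the kynureninase, and 1 other gene fell (median 0.18). With the GC and length offsets KYNU was at -0.11 (adjusted p = 0.0326). In vehicle against add-back 3 rose and 0 fell (median 0.54), with KMO at 1.23 (adjusted p = 2.94e-09). TDO2 went from 6.57 ± 1.00 to 9.96 ± 0.883 CPM there. In add-back against knockout and in LY500307 against vehicle 0 of 4 were called by edgeR, limma-voom or DESeq2, and 1 in each had an unadjusted edgeR p under 0.05.

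Electron donors of the P450 enzymes and genes of estrogen catechol metabolism had 8 of 9 genes tested, with 4 higher and 3 lower in knockout against control (median 0.37). POR, the reductase that feeds electrons to CYP1 enzymes, rose by 0.86 in knockout cells (adjusted p = 2.29e-09), and CYB5R3 by 0.57 (adjusted p = 8.38e-08), while CYB5A changed by -0.32 (adjusted p = 4.85e-06). With the GC and length offsets these were 0.51 for POR, 0.29 for CYB5R3 and -0.19 for CYB5A, all still called. POR then fell by 0.64 in vehicle against add-back (adjusted p = 8.67e-08), where CYP1A1 and CYP1B1 rose, and 1 gene of this list rose and 4 fell there (median -0.25). In add-back against knockout 0 of 8 were called by edgeR, limma-voom or DESeq2, and 2 had an unadjusted edgeR p under 0.05.

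Of the 6 genes next to or over members, 2 were called higher and 0 lower in knockout against control (median 0.11): CSK, beside CYP1A2 (0.17, adjusted p = 0.00339), which was lower with the GC and length offsets (-0.32, adjusted p = 4.09e-06), and PDCD6-AHRR (1.72, adjusted p = 0.023), which was at 0 in control replicate 2. The call on PDCD6-AHRR was lost without that library (1.15, adjusted p = 0.0838), without knockout replicate 2 (1.57, adjusted p = 0.0729) and with DESeq2 (1.74, adjusted p = 0.285), and its log2 fold change was 3.12 with limma-voom (adjusted p = 0.0324). Without a filter on low counts its log2 fold change stayed at 1.72 while its adjusted p was 3.79e-14 (edgeR). That is no stronger evidence for the change. TIPARP-AS1 was at 0.74 (adjusted p = 0.241).

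The pattern over the 15 libraries was compared with that of every protein-coding gene whose log2 CPM averaged at least 1, as a description, since libraries of a group share their condition. Nearest to CYP1A1 were SDCBP (Pearson r = 0.992), PLPP3 (0.992) and NEK6 (0.991), nearest to CYP1B1 were MAGED1 (0.996), SDR16C5 (0.995) and GUCY1B1 (0.993), and among the nearest to AHR were TSPAN13 (0.993) and C4orf3 (0.991). TIPARP was most like KLF10 (0.946), SRSF1 (0.940) and NAT10 (0.935), ARNT most like GORAB (0.892), POLI (0.873) and NUF2 (0.866), and AHRR most like SEC14L2 (0.827), TXNL4B (0.785) and TASP1 (0.741). With Spearman's rho the nearest genes of AHR, CYP1A1, CYP1B1 and TIPARP were other genes. Among the members AHR went with CYP1A1 (r = 0.949) and CYP1B1 (r = 0.940), and the r of TIPARP was -0.13 with CYP1A1 and -0.43 with CYP1B1.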

How the data were processed

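Total RNA of KPL4 cells was made into stranded, ribosome-depleted libraries, per the labels' protocols. The deposited values are expected counts per gene and per transcript, which the authors made on GRCh38 with tools that include RSEM, GSNAP, Trim Galore and FastQC, per the submitters' processing notes. Use of strand and the annotation release are not given in the sources used here. Columns were assigned to samples by name. Gene counts were rounded and tested with edgeR 4.0.16 (R 4.3.3) in 1 quasi-likelihood model of all 15 libraries, with TMM factors, filterByExpr and Benjamini-Hochberg adjustment over 19516 genes, called at adjusted p under 0.05. Standard errors came from the fit weights, and the code was tested on simulated data. Depth was 12614050 to 19390386 counts per library. Coordinates, transcripts and lengths are from GENCODE 29, and start windows from RefSeq (GRCh38.p14). The members and lists were chosen with earlier results of these data known. Other genes of the lists are named where among the 3 with the smallest p of their list in knockout against control. They are also named where called in LY500307 against vehicle with an absolute log2 fold change of at least 0.5. ALDH3A1 and NQO1 meet neither rule and were named after their values were seen. Alternatives were other scalings and filters, a replicate block, GC and length offsets, the 6 libraries of a comparison alone, limma-voom 3.58.1, DESeq2 1.42.0 and leaving out each library. AHRR summed with PDCD6-AHRR was added after seeing the data. Results of some genes of the lists and of the likeness search are not reported here.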

Additional observations from a re-analysis of the deposited data

How the results depend on the processing

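The number of members called kept within 1.5 times of its value in knockout against control and vehicle against add-back under all alternatives run. In add-back against knockout it went from 1 to 4 without a filter and 3 with the 6 libraries alone, and ran from 1 to 2 with 1 library left out. In add-back against control, where 4 were called, leaving out 1 library gave 2 to 4. In LY500307 against vehicle, where 1 was called, it was 2 with upper-quartile factors, with the 6 libraries alone, with limma-voom and with DESeq2, 4 without a filter, 0 with GC and length offsets, and 0 to 1 with 1 library left out. The fit without a filter gave smaller adjusted p-values for AHRR and PDCD6-AHRR in knockout against control at nearly unchanged fold changes. Calls made only by that fit, of members or of ESR2, are therefore weak evidence. With the replicate number as a block the counts were 2, 1, 4, 3 and 1, in the order of the report. Deviations of same-numbered libraries had r from -0.44 to 0.315, with 7 of 30 pairs over 0.1. Those of differently numbered libraries had r from -0.371 to 0.458, with 22 of 60 pairs over 0.1. The numbers thus gave no sign of pairing, which this does not exclude. Signs turned for AHRR summed with PDCD6-AHRR (0.79 in knockout and 0.52 in add-back cells against control, and -0.54 in vehicle against add-back). With GC and length offsets they turned for ARNT (0.046 in knockout against control, -0.0596 in vehicle against add-back) and CSK (-0.32). CYP1A1 in add-back against control was at -0.0152 with upper-quartile factors and -0.0468 with limma-voom. With 1 library left out the log2 fold changes ran from -0.036 to 0.0025 for ARNT in knockout against control, from -0.0129 to 0.0534 for ARNT in vehicle against add-back, from -0.14 to 0.26 for CYP1A1 in add-back against control, from -0.0995 to 0.0444 for TIPARP in vehicle against add-back and from -0.085 to 0.0186 for ESR2 in LY500307 against vehicle. Where a sign turned on a scaling or a left-out library, the cause was not tested. The share of calls that were higher was 53.1% in add-back against knockout but 42.0% with upper-quartile factors, and 67.0% in LY500307 against vehicle but 83.1% without a filter. Total calls in LY500307 against vehicle were 1389, 330 with the GC and length offsets and 299 (without vehicle replicate 2) to 1844 (without vehicle replicate 3) with 1 library left out. The fold changes of other genes followed were counted once for each alternative. In 27 of these cases the call was lost, in 4 gained, in 2 the sign changed, and in 567 none of these occurred. At 9 to 22 counts per library in regular medium, depth limits what can be said of CYP1A1 there.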
